A study of Mus musculus with 9 samples.

Results

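The miR-15/16 family and its relatives were described in the milk fat of mouse dams through 7 mature miRNAs, taken by name from a count table of 1915 mature miRNA names, of which 828 had at least 1 count. The members are mmu-miR-15a-5p, mmu-miR-15b-5p, mmu-miR-15b-3p, mmu-miR-16-5p, mmu-miR-195a-5p, mmu-miR-322-5p and mmu-miR-322-3p. They occupy 8 rows of the table, because mmu-miR-16-5p is listed under both of its precursors, and those rows differed by at most 0.445% in any library. All 7 passed the filter on low counts, 10 counts in the median library or its like share in 4 or more libraries, which 312 names passed in all. Milk was taken on lactation day 10 from 9 first-litter female ICR (CD1) mice, an outbred stock, with 1 library per dam. The 4 high-fat dams were fed a diet that held 5.24 kcal per g and took 60% of its energy from fat. The 5 control dams were fed a diet that held 3.85 kcal per g and took 10% from fat. Sucrose gave 7% of the energy in both diets, and both were started at 4 weeks of age, 4 weeks before mating, and kept up until the milk was taken. No genetic change is named for either group. The dams lived in same-diet pairs before mating, and the labels do not say which ones were caged together.

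The miR-15/16 family is known for holding back the cell cycle. Its members pair through a shared seed, the stretch near the 5′ end that selects targets, with mRNAs of cyclin D1, cyclin D3, cyclin E1, CDK6 and BCL2, and cells that overexpress them accumulate before S phase. The family is made from several clusters of precursors, each a hairpin that can yield a mature strand from its 5′ arm (5p) and its 3′ arm (3p). On lactation day 10 the secretory epithelium makes milk rather than dividing rapidly, and the fat globules it releases carry some of its cytoplasm and RNA.

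The 5 members that come from a 5′ arm have the same bases 2 to 8, shown in capitals in their RefSeq mature sequences, which are printed because this seed is what makes them 1 family.
mmu-miR-15a-5p: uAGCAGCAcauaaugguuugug
mmu-miR-15b-5p: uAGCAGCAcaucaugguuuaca
mmu-miR-16-5p: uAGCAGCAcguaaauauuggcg
mmu-miR-195a-5p: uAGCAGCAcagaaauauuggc
mmu-miR-322-5p: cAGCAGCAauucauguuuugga

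Outside the seed some members form close pairs. mmu-miR-322-5p is in none of these, and differs from the other members at 6 to 10 positions, base 1 among them. Counted from 1 at the 5′ end, mmu-miR-195a-5p differs from mmu-miR-16-5p at 2 shared positions, G10A and U11G, with the base of mmu-miR-16-5p given first. Between mmu-miR-15a-5p and mmu-miR-15b-5p there are 4 differences, A12C, G20A, U21C and G22A, so their first 11 bases are identical. Reads long enough to cover these positions separate the members, but a read trimmed before position 12 could belong to either miR-15. The rule by which the authors assigned such reads is not stated in the labels.

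The 2 members from a 3′ arm have other seeds, and miR-503-5p, a cluster neighbour of miR-322, differs from the family seed in its last base. These are shown because arms and neighbours of the mir-322 locus differed in direction in the counts described below. Such a difference was not particular to this locus. The arms of miR-22 and of miR-148a also differed in direction, and miR-16-2-3p differed from its cluster partner mmu-miR-15b-5p.
mmu-miR-15b-3p: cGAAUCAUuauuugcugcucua
mmu-miR-322-3p: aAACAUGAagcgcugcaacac
mmu-miR-503-5p: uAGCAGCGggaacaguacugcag

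The mir-322 hairpin, 95 bases long, carries both of its mature arms, which are in capitals, the 5p arm first.
Mir322: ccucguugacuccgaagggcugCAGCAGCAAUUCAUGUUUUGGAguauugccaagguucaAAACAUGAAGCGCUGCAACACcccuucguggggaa

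In the table, 10 mature names have the family seed, and 6 of them had at least 1 count: the 5 members and miR-497a-5p. The others, miR-195b, miR-6342, miR-6353 and miR-6419, were listed at 0 in every library.

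The precursors lie in 4 clusters of GRCm38. Mir15a, at chr14:61632027-61632110 on the minus strand, is in an intron of Dleu2, a long noncoding RNA gene. Mir16-1 lies 54 bases away, at chr14:61631880-61631972, within an exon of a Dleu2 transcript. Mir15b, at chr3:69009772-69009835 on the plus strand, and Mir16-2, 66 bases further at chr3:69009902-69009996, are in introns of Smc4, which encodes a condensin subunit that helps to compact chromosomes in mitosis. Mir195a, at chr11:70235042-70235135 on the plus strand, lies 241 bases from Mir497, at chr11:70234717-70234800. Mir322, at chrX:53054255-53054349 on the minus strand, lies 200 bases from Mir503, at chrX:53053984-53054054. Neither of these last clusters overlaps an annotated gene apart from the miRNAs in GENCODE vM21.

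Library totals ran from 1905838 to 3897109 counts in the high-fat group and from 837817 to 2750482 in the control group. Levels are given as CPM, counts scaled to the library total, and fold changes as the log2 of high-fat over control after scaling with trimmed means. Reads span the whole mature strand, so CPM needs no correction for length, but efficiency of adapter ligation differs between sequences and was not corrected. Secretory epithelium miRNAs, led by the miR-200 family and miR-148a, took 22.7% to 25% of the counts in high-fat libraries and 21.1% to 25.2% in control libraries. The 5 leukocyte markers were all detected, and they summed to 1.14% of counts in high-fat library 1 and 0.287% in library 3. In high-fat libraries 2 and 4 they summed to 0.00777% and 0.0251%, and in control libraries to between 0.0356% and 0.0762%. The 4 erythrocyte markers were detected at 0.00201% to 0.065% in high-fat libraries, with library 3 highest, and at 0.00227% to 0.0158% in control libraries. The 4 stromal markers, all detected, took 1.16% to 2.57% in high-fat libraries and 1.03% to 1.91% in control libraries. The 2 endothelial markers took 0.00105% to 0.00291% in high-fat libraries and 0.000643% to 0.0022% in control libraries. Of 3 striated muscle markers, miR-206-3p was at 0 throughout, and the sum took at most 0.0091% in high-fat libraries and 0.000562% in control libraries. In milk fat, fewer cells of a type and less RNA per cell cannot be told apart. The part of these markers in the results was not tested.

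No member changed with diet at an adjusted p under 0.05 in limma-voom, against 0% of the 312 tested names. At an unadjusted p under 0.05, 1 of the 7 members passed, mmu-miR-15a-5p, against 10.3% of the tested names (32 of 312). A fold change above 0 was found for 6 of the 7, against 50.6% of the tested names (158 of 312), and the members' median log2 fold change was 0.20, against 0.00 over all tested names. The 5 members with the family seed were all above 0, with a median of 0.24. The members are not independent of each other, since several share a precursor cluster or a seed. The median was 0.04 without high-fat library 1 and 0.05 without control library 2, each with 4 of the 7 above 0. Without high-fat libraries 1 and 3 together, which had the most leukocyte miRNAs, 3 of the 7 were above 0 and the median was -0.08. That exclusion was chosen after seeing the data and kept only high-fat libraries 2 and 4.

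**Figure D1:**
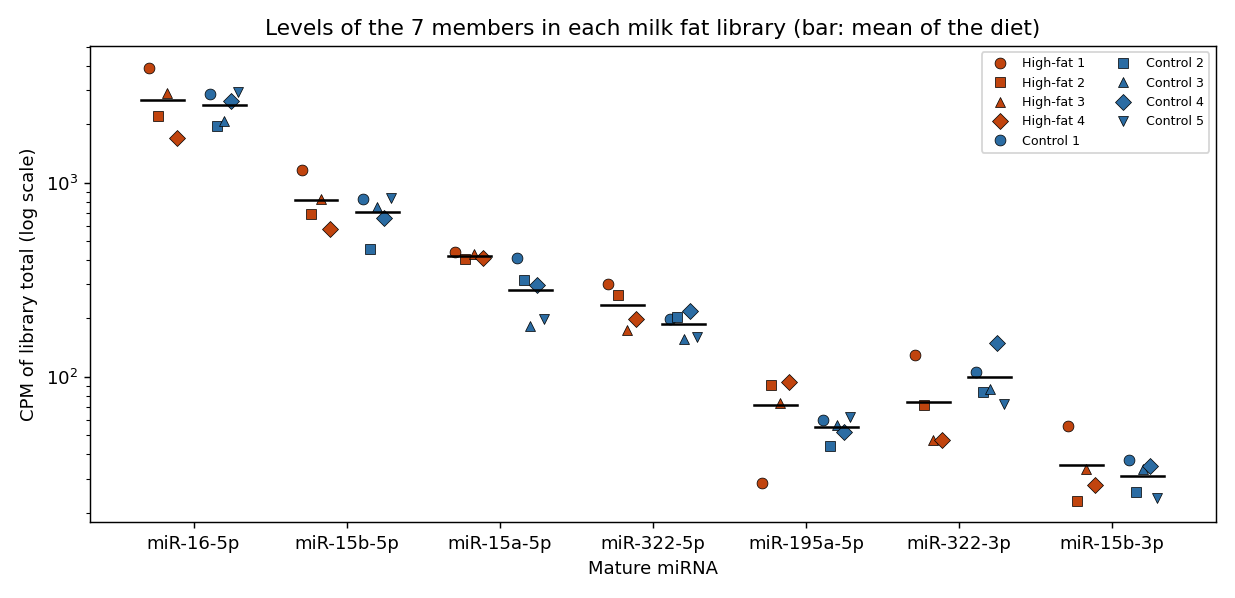
Level of each of the 7 members in CPM (log axis) in the 4 high-fat and 5 control libraries; points are libraries and bars are group means. mmu-miR-16-5p was the most abundant member, at 1702 to 3913 CPM in high-fat libraries and 1947 to 2940 CPM in control libraries, and the groups overlapped for every member.

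The abundance of the members was strongly graded, and the grading held across dams. mmu-miR-16-5p averaged 2576 CPM over the 9 libraries and ranked 43 of the 828 detected names. It was followed by mmu-miR-15b-5p at 752 CPM, mmu-miR-15a-5p at 343 CPM and mmu-miR-322-5p at 209 CPM. Each of these levels was above the next in all 9 libraries, and mmu-miR-322-5p was above mmu-miR-322-3p in all 9 as well. mmu-miR-322-3p averaged 88.2 CPM and mmu-miR-195a-5p 62.4 CPM, and their order held in 6 of 9 libraries, so these neighbours were not separated beyond their spread. mmu-miR-15b-3p was the lowest member at 32.8 CPM, under mmu-miR-195a-5p in 8 of 9 libraries. Its lowest count, 20 counts in control library 5, gave 23.9 CPM with a 95% Wilson interval of 15.5 to 36.9 CPM that covers counting error only.

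mmu-miR-16-5p, the founding member of the family together with miR-15a and the one most often used to represent it, stood at 3913, 2200, 2886 and 1702 CPM in high-fat libraries 1 to 4. In control libraries 1 to 5 it stood at 2874, 1947, 2079, 2646 and 2940 CPM. High-fat library 1 was the highest of all and library 4 the lowest, so the control libraries lay inside the high-fat range. The means were 2675 ± 957 CPM in high-fat libraries and 2497 ± 458 CPM in control libraries (SD, n = 4 and 5). The log2 fold change was 0.06 ± 0.22 (SE), with an adjusted p of 0.894 in limma-voom. Without high-fat library 1 it was -0.12, and without libraries 1 and 3 it was -0.30.

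mmu-miR-15b-5p, made from the same Smc4 introns as one of the miR-16 precursors, had 1164, 690.3, 825 and 575 CPM in high-fat libraries. It had 819.9, 455, 746, 660.2 and 837 CPM in control libraries. High-fat library 1 was again the highest, and control library 2 the lowest. The means of 813 ± 255 CPM in high-fat and 703 ± 156 CPM in control libraries differed by a log2 fold change of 0.20 ± 0.22 (adjusted p = 0.737, limma-voom). This was 0.04 without high-fat library 1, 0.05 without control library 2, 0.33 without high-fat library 4 and -0.08 without high-fat libraries 1 and 3. Over the 9 libraries mmu-miR-15b-5p was the tested name whose profile lay nearest to that of mmu-miR-16-5p, with a root mean square distance of 0.18 on the centred log2 scale, against a median of 0.54 over the other tested names. Next came miR-191-5p at 0.21 and miR-186-5p at 0.23.

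mmu-miR-15b-3p, the opposite arm of the same hairpin, is the less abundant strand. Its levels were 55.7, 23.1, 33.6 and 27.8 CPM in high-fat libraries and 37.4, 25.7, 33.4, 35 and 23.9 CPM in control libraries. High-fat library 1 was the highest and high-fat library 2 the lowest, so that the high-fat range enclosed the control range. Means were 35 ± 14.4 CPM in high-fat and 31.1 ± 5.96 CPM in control libraries, a log2 fold change of 0.04 ± 0.28 (adjusted p = 0.94, limma-voom). It was -0.18 without high-fat library 1. The log2 ratio of the 5p to the 3p arm of mir-15b was 4.56 ± 0.25 in high-fat and 4.47 ± 0.38 in control libraries (SD), and the difference of 0.09 gave p = 0.683 in a two-sided exact permutation test.

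mmu-miR-15a-5p, encoded with miR-16-1 in the Dleu2 locus that is deleted in many human chronic lymphocytic leukaemias, was the member with the largest difference between diets among those with the family seed. It had 441, 404, 429 and 409.8 CPM in high-fat libraries. It had 410.3, 316, 182, 296 and 199 CPM in control libraries. Control library 1 was the only control library inside the high-fat range, and the other control libraries lay below it. Group means were 421 ± 17.1 CPM in high-fat and 281 ± 93 CPM in control libraries, and the log2 fold change was 0.65 ± 0.23. The unadjusted p was 0.0161 and the adjusted p 0.386 in limma-voom, so the difference did not pass the test over all names. With library sizes scaled by trimmed means, the high-fat values of 406, 416, 439 and 424 CPM were all above the highest control value of 398 CPM. Before that scaling the CPM of the groups did not overlap for 4.17% of tested names (13 of 312), and after it for 4.81% (15 of 312). The fold change ran from 0.48 without control library 3 to 0.80 without control library 1, and was 0.64 without high-fat libraries 1 and 3, which had the most leukocyte miRNAs.

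The 4 high-fat values of mmu-miR-15a-5p lay close together. On the log2 scale their SD was 0.05 after scaling, against 0.48 in the control libraries, and no other of the 312 tested names had a high-fat SD that low. The median SD over tested names was 0.42 in high-fat and 0.39 in control libraries. This feature was chosen after its values were seen and has no test.

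mmu-miR-195a-5p, which differs from mmu-miR-16-5p at positions 10 and 11 and comes from its own cluster with miR-497a, had 28.3, 91.3, 73.7 and 93.9 CPM in high-fat libraries. It had 60, 44.2, 56.7, 51.9 and 62.1 CPM in control libraries. High-fat libraries 2, 3 and 4 lay above every control library, and high-fat library 1 lay below every one. The means were 71.8 ± 30.4 CPM in high-fat and 55 ± 7.14 CPM in control libraries, with a log2 fold change of 0.24 ± 0.39 (adjusted p = 0.835, limma-voom). This value depended on single libraries: it was 0.69 without high-fat library 1 (limma-voom adjusted p = 0.188), -0.06 without high-fat library 2 and 0.08 without high-fat library 4. It was 0.80 without high-fat libraries 1 and 3. High-fat library 1, the lowest for this member, was the highest for mmu-miR-16-5p and had the largest sum of leukocyte markers.

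**Figure D2:**
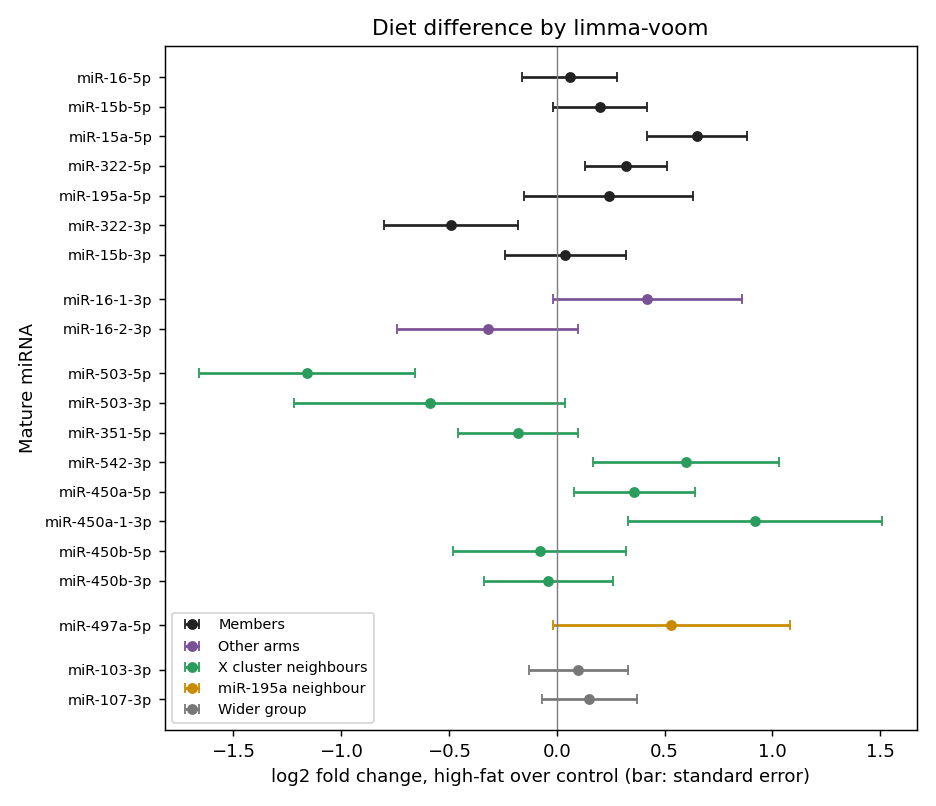
Log2 fold change, high-fat over control, of the 7 members and of their other arms, cluster neighbours and the wider seed group (miR-103-3p and miR-107-3p), with standard errors from limma-voom over 9 libraries. Among the members mmu-miR-15a-5p lay highest, at 0.65, and mmu-miR-322-3p lowest, at -0.49, and no plotted name passed an adjusted p of 0.05.

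The arms of mir-322, the mouse counterpart of human miR-424, leaned in opposite directions with diet, and neither passed the test on its own. mmu-miR-322-5p, the arm with the family seed, had 302, 265, 175 and 199 CPM in high-fat libraries. It had 198, 204, 156, 219 and 159.9 CPM in control libraries. High-fat libraries 1 and 2 were above all control libraries, and libraries 3 and 4 were inside the control range. Means were 235 ± 58.6 CPM in high-fat and 187 ± 28 CPM in control libraries, a log2 fold change of 0.32 ± 0.19 (adjusted p = 0.649, limma-voom). It was 0.17 without high-fat library 2. The names nearest to its profile were miR-210-3p, a miRNA induced by low oxygen, at a distance of 0.17, miR-429-3p at 0.19 and let-7i-5p at 0.22, against a median of 0.50.

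mmu-miR-322-3p, the arm with another seed, leaned the other way. Its levels were 130.1, 71.8, 47.5 and 47.2 CPM in high-fat libraries and 106, 83.6, 86.2, 149 and 72.8 CPM in control libraries. High-fat libraries 2, 3 and 4 were below every control library in CPM, and library 1 was inside the control range. With library sizes scaled by trimmed means, high-fat library 2, at 73.9 CPM, was above control library 5, at 72.5 CPM, so only libraries 3 and 4 were below every control library. Means of the unscaled CPM were 74.2 ± 39.1 CPM in high-fat and 99.4 ± 30 CPM in control libraries, a log2 fold change of -0.49 ± 0.31 (adjusted p = 0.649, limma-voom). Leaving out single libraries gave -0.76 without high-fat library 1, -0.34 without high-fat library 3 and -0.33 without control library 4.

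The ratio of the arms is free of library scaling, since both counts come from 1 library. The 5p arm was 2.32, 3.68, 3.69 and 4.21 times the 3p arm in high-fat libraries 1 to 4. It was 1.87, 2.44, 1.81, 1.47 and 2.2 times the 3p arm in control libraries 1 to 5. High-fat libraries 2, 3 and 4 were above all control libraries, and high-fat library 1 was below control library 2, so the groups overlapped. The log2 ratio averaged 1.76 ± 0.37 in high-fat and 0.95 ± 0.28 in control libraries (SD, n = 4 and 5), a difference of 0.81 ± 0.26 (SE), or 1.76-fold. This ratio and its tests were chosen with earlier results of these data known, so their p-values are descriptive. A two-sided exact permutation test of this ratio alone gave p = 0.0317, where 0.0159 is the smallest p that 4 against 5 libraries allow. Among all 82 hairpins with both arms countable, its limma p of 0.00942 ranked 2, after mir-32, and its adjusted p was 0.386. None of the 82 hairpins passed the adjusted threshold (0%), 11% passed at an unadjusted p under 0.05 (9 of 82), and in 0% did the groups not overlap. The exact p was 0.0714 without any 1 of high-fat libraries 2, 3 and 4, and 0.0571 without any 1 of control libraries 1, 3, 4 and 5. Without high-fat libraries 1 and 3 it was 0.0952, which is the smallest p that the remaining libraries allow. Both remaining high-fat libraries lay above all control libraries there. The log2 difference ran from 0.71 to 1.03 over all alternatives tried.

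**Figure D3:**
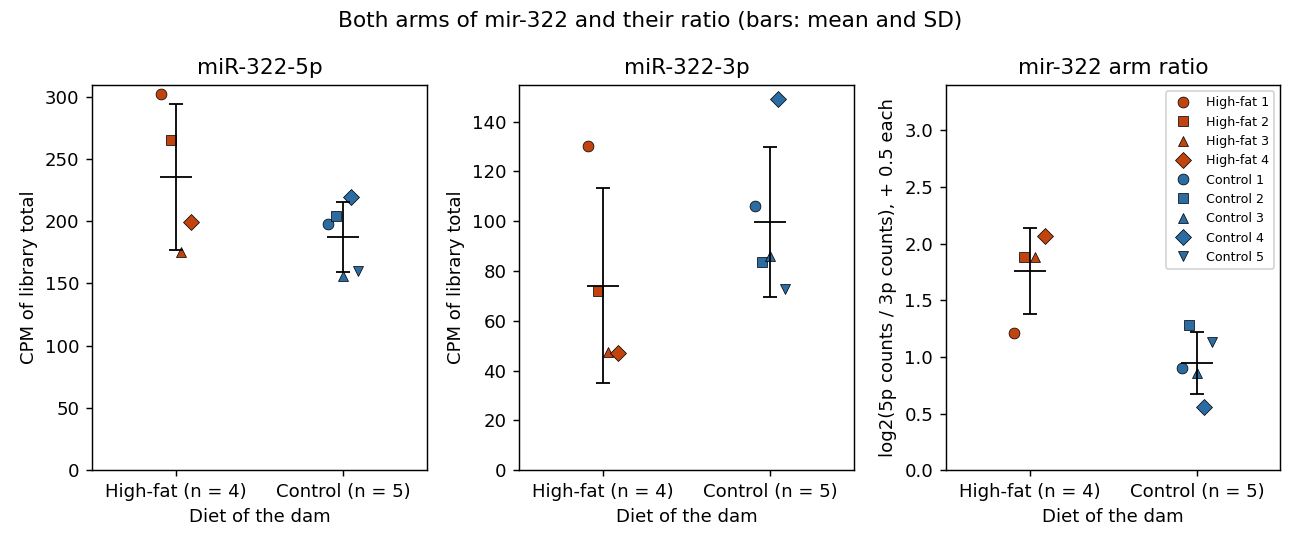
Levels of the 2 arms of mir-322 in CPM and the log2 ratio of the 5p to the 3p arm in each of the 4 high-fat and 5 control libraries, with bars for mean and SD. The log2 ratio was 1.21, 1.88, 1.88 and 2.07 in high-fat libraries and 0.90, 1.28, 0.86, 0.56 and 1.13 in control libraries, so high-fat library 1 lay within the control range.

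The neighbour of mir-322 on chromosome X, miR-503-5p, is known to act on cyclin D1 as the family does. It had 101, 46.7, 11.4 and 31.5 CPM in high-fat libraries, against 129, 108, 54.2, 90.6 and 75.2 CPM in control libraries. High-fat libraries 2, 3 and 4 were below every control library, and high-fat library 1 was inside the control range. The lowest value came from 23 counts in high-fat library 3, with an interval of 7.58 to 17.1 CPM. Means were 47.6 ± 38.4 CPM in high-fat and 91.5 ± 28.9 CPM in control libraries, and the log2 fold change was -1.16 ± 0.50 (unadjusted p = 0.0412, adjusted p = 0.441, limma-voom). It was -0.67 without high-fat library 3.

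mmu-miR-322-5p and miR-503-5p, whose hairpins lie 200 bases apart, were set against each other within each library. mmu-miR-322-5p was 2.99, 5.66, 15.4 and 6.32 times miR-503-5p in high-fat libraries. It was 1.53, 1.88, 2.89, 2.42 and 2.13 times miR-503-5p in control libraries. Every high-fat library was above every control library, although high-fat library 1, at 2.99, was close to control library 3, at 2.89. How often ratios of other pairs of names separate the groups was not counted. The log2 ratio was 2.66 ± 0.96 in high-fat and 1.08 ± 0.35 in control libraries, a difference of 1.58, or 2.99-fold. It was 1.16 without high-fat library 3. This ratio and 4 others within clusters or between family members were formed after the levels had been seen, so they are given as descriptions only, without p-values. Of the others, miR-15a-5p over miR-16-5p was -2.60 ± 0.46 in high-fat and -3.20 ± 0.51 in control libraries on the log2 scale. For miR-15b-5p over miR-16-5p the log2 ratio was -1.70 ± 0.10 in high-fat and -1.84 ± 0.24 in control libraries. For miR-15a-5p over miR-15b-5p it was -0.90 ± 0.38 in high-fat and -1.36 ± 0.67 in control libraries. For miR-195a-5p over miR-497a-5p it was 1.63 ± 0.38 in high-fat and 2.19 ± 1.68 in control libraries, where control library 5 stood at 5.13 from 1 count of miR-497a-5p. Without that library the control mean was 1.45 ± 0.40, below the high-fat mean, so the direction turned.

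**Figure D4:**
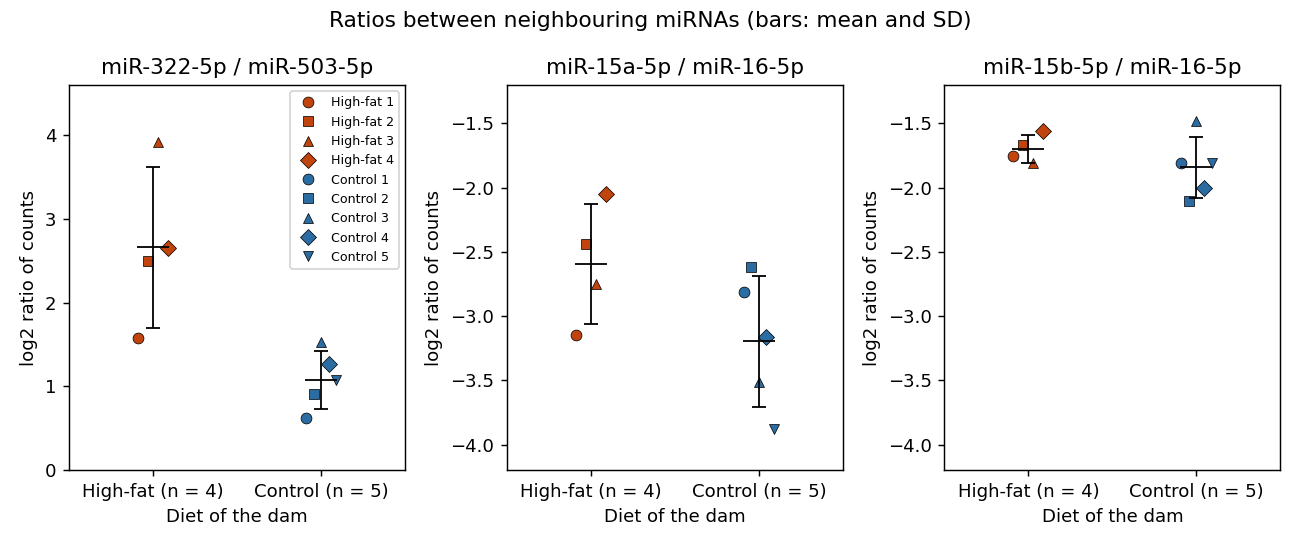
Log2 ratios of counts for 3 pairs of neighbouring miRNAs in each of the 4 high-fat and 5 control libraries, with bars for mean and SD. For miR-322-5p over miR-503-5p the high-fat libraries averaged 2.66 and the control libraries 1.08, and the groups did not overlap. This pair was chosen after the levels had been seen, and how often other pairs separate the groups was not counted. For the other 2 ratios plotted the groups overlapped.

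The remaining products of the clusters were scarce or did not pass the test. Of 13 cluster neighbours listed, miR-503-5p and miR-497a-5p among them, 9 were tested, 4 with a fold change above 0 and 5 below, and their median was -0.04. On chromosome X, miR-351-5p had a log2 fold change of -0.18 ± 0.28, miR-542-3p 0.60 ± 0.43, miR-450a-5p 0.36 ± 0.28, miR-450a-1-3p 0.92 ± 0.59, miR-503-3p -0.59 ± 0.63, miR-450b-5p -0.08 ± 0.40 and miR-450b-3p -0.04 ± 0.30. The opposite arms of the miR-16 precursors, which tell the Dleu2 and Smc4 copies apart where mmu-miR-16-5p cannot, were low. miR-16-1-3p averaged 13.8 ± 5.63 CPM in high-fat and 10.4 ± 5.5 CPM in control libraries, with a log2 fold change of 0.42 ± 0.44. miR-16-2-3p averaged 20.1 ± 15.6 CPM in high-fat and 20.9 ± 5.51 CPM in control libraries, with a log2 fold change of -0.32 ± 0.42. miR-15a-3p had 37 counts over all 9 libraries and miR-195a-3p had 3.

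miR-497a-5p, which has the family seed and sits beside miR-195a, averaged 21.9 ± 7.65 CPM in high-fat and 15.7 ± 8.52 CPM in control libraries, a log2 fold change of 0.53 ± 0.55. The control mean was 19.3 ± 3 CPM and the log2 fold change 0.14 without control library 5, which had 1 count. miR-103-3p and miR-107-3p have the related seed GCAGCAU, the family seed shifted by 1 base. Their log2 fold changes were 0.10 ± 0.23 for miR-103-3p and 0.15 ± 0.22 for miR-107-3p.

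The 5 members that share the seed can be read as a pool, the sum of their counts. The pool leaves out miR-497a-5p, which also has the seed and had 357 counts over all libraries. The pool took 0.585%, 0.365%, 0.439% and 0.298% of the counts in high-fat libraries and 0.436%, 0.297%, 0.322%, 0.387% and 0.42% in control libraries. High-fat library 1 was the highest and control library 2 the lowest, and the groups overlapped. The 95% Wilson intervals reached at most 0.0138 percentage points to either side, far less than the spread between dams. The means were 0.422 ± 0.123% in high-fat and 0.372 ± 0.0609% in control libraries. Within the pool mmu-miR-16-5p made up 62.5 ± 4.62% in high-fat and 66.9 ± 2.23% in control libraries. mmu-miR-15b-5p made up 19.2 ± 0.498% in high-fat and 18.9 ± 2.97% in control libraries, and mmu-miR-15a-5p 10.5 ± 2.59% in high-fat and 7.62 ± 2.47% in control libraries. The smaller parts were mmu-miR-322-5p, at 5.77 ± 1.48% in high-fat and 5.15 ± 1.18% in control libraries, and mmu-miR-195a-5p, at 1.95 ± 1.15% in high-fat and 1.49 ± 0.166% in control libraries.

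**Figure D5:**
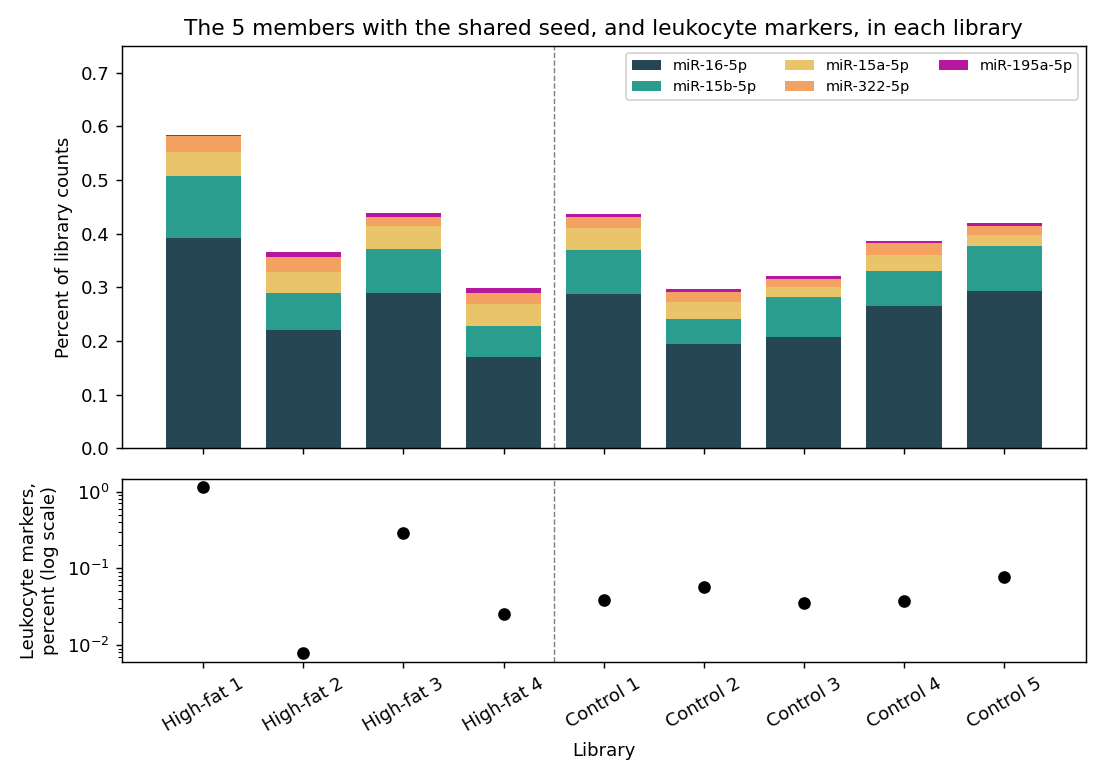
Share of all miRNA counts held by the 5 members with the family seed, stacked by member, with the summed share of the 5 leukocyte markers below (log axis), in each of the 4 high-fat and 5 control libraries. The pool took 0.298% to 0.585% of counts in high-fat libraries and 0.297% to 0.436% in control libraries, mostly as mmu-miR-16-5p, and the leukocyte markers were highest in high-fat library 1, at 1.14%.

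The spread between dams differed among the members. The SD of log2 CPM pooled over the groups was 0.27 for mmu-miR-322-5p, 0.60 for mmu-miR-195a-5p and 0.51 for mmu-miR-322-3p, against a median of 0.44 over tested names. The other members had pooled SDs of 0.35 to 0.37.

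Other miRNAs tied to the cell cycle were read beside the family. The list was not split by whether a miRNA restrains or promotes the cycle. Of 19 listed, 15 were tested, 7 with a fold change above 0 and 8 below, and their median was -0.10, where 50.6% of all tested names were above 0. None passed the adjusted threshold in limma-voom, and 3 had an unadjusted p under 0.05, against 10.3% of all tested names. The fold changes ran from -0.53 for miR-34b-3p, a p53-induced miRNA, to 0.57 for miR-29c-3p, a regulator of CDK6 and of collagens. miR-26b-5p, which acts on cyclin E and CDK6, averaged 9485 ± 724 CPM in high-fat and 7238 ± 1320 CPM in control libraries. Its log2 fold change was 0.41 ± 0.15 (adjusted p = 0.388, limma-voom). Every high-fat library was above every control library, a separation found in either direction for 4.17% of tested names in CPM and 4.81% after scaling. miR-222-3p, which acts on the CDK inhibitor p27, had a log2 fold change of -0.48 ± 0.20.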

How the data were processed

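Per the labels' protocols, the milk fat layer was washed with buffer and spun again to remove cells, RNA was extracted with miRNeasy, and NEXTflex v3 libraries were sequenced on a HiSeq2500. The authors deposited counts of known miRNAs, whole numbers with comma separators in 833 cells, which were removed on reading. limma-voom was the test set for them. Per the submitters' processing notes, cutadapt 1.9.1 trimmed adapters and the build was GRCm38. The aligner, counter, miRBase release and use of the kit's random bases are unstated, so whether the counts are reads or merged molecules is not known. A check for libraries deposited more than once found none (chi-square per degree of freedom of at least 50.2 within a diet).

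For each name and library the highest row was kept. Names were tested where 4 or more libraries reached 5.25 CPM, equal to 10 counts in the median library, and the total was 15 or more, which left out 0.047% of counts. limma 3.58.1 in R 4.3.3 fitted log2 CPM with voom weights, two-sided, with diet as the only term, Benjamini-Hochberg adjustment over the tested names and a threshold of 0.05. Library sizes were scaled with trimmed means of log ratios (30% of ratios and 5% of levels trimmed). limma also fitted log2 arm ratios (pseudocount 0.5, each arm with 10 counts in 4 libraries). Exact permutation tests and 95% Wilson intervals, which cover counting error only, used scipy 1.17.1. The fits were tested on simulated data with changes larger than those of the members, so that check does not show how well small changes are found. Dams are the replicates, and no batch or date is given in the labels.

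All 7 members are described, with their seed relatives, other arms, cluster neighbours and a list of cell cycle miRNAs. The members, lists and tests were chosen with earlier results of these data known. Sequences come from RefSeq, which held all 7 members, and gene positions from GENCODE vM21 on GRCm38. Alternatives were another scaling, other filters, summed rows, library weights, limma-trend, a replicate block, each library left out in turn and, chosen after seeing the data, leaving out high-fat libraries 1 and 3 together and, for miR-503-5p, miR-497a-5p and the ratios between miRNAs, each library in turn.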

Additional observations from a re-analysis of the deposited data

Results flagged for a closer look

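In control library 5, miR-497a-5p was at 1.19 CPM, from 1 count, with a 95% Wilson interval of 0.211 to 6.76 CPM, and lay apart from the other control libraries by Dixon's test. It averaged 21.9 ± 7.65 CPM in high-fat and 15.7 ± 8.52 CPM in control libraries, and its log2 fold change of 0.53 was 0.14 without control library 5. The same library also stood apart from the other controls in the log2 ratio of miR-195a-5p over miR-497a-5p, at 5.13, which rests on the same count, and without it the high-fat minus control difference was 0.18 in place of -0.56. It was the shallowest library, with 837817 counts, and the part of depth was not tested. In all, 56 groups of values were searched and 2 stood apart, against 2.8 due by chance at 1 in 20.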

How the results depend on the processing

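No member passed the adjusted threshold under any of the 19 alternatives, where the members' lowest adjusted p was 0.121 in limma-voom. Over the whole table, where limma-voom called 0 names (32 at an unadjusted p under 0.05), it called 4 without a filter on low counts, 4 with a stricter filter and 2 with library quality weights, and limma-trend called 2 and 3 with pseudocounts of 1 and 5. Leaving out a library gave 0 to 4 calls, with 4 without control library 5. None of the called names was a member. The replicate block gave 3 calls and a mir-322 arm difference of 0.86. Correlations of same-numbered libraries ran from -0.16 to 0.20. High-fat libraries 1 and 3 correlated best with the control library of their own number, and high-fat libraries 2 and 4 did not. Whether same-numbered libraries share a batch or handling cannot be told from these correlations.

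The log2 fold changes of mmu-miR-15a-5p, mmu-miR-322-5p and mmu-miR-322-3p and the mir-322 arm difference kept their direction throughout. With single libraries left out, mmu-miR-15b-3p ran from -0.18 to 0.20, mmu-miR-16-5p from -0.12 to 0.23, mmu-miR-195a-5p from -0.06 to 0.69, mmu-miR-15b-5p from 0.04 to 0.33, mmu-miR-322-5p from 0.17 to 0.44, mmu-miR-322-3p from -0.76 to -0.33, the mir-15b arm difference from -0.02 to 0.24 and the log2 difference of miR-195a-5p over miR-497a-5p from -0.86 to 0.18. With quality weights mmu-miR-15b-3p was -0.01. Without high-fat libraries 1 and 3, mmu-miR-16-5p was -0.30, mmu-miR-15b-3p -0.29, mmu-miR-15b-5p -0.08 and the members' median -0.08. The exact permutation p of the mir-322 arm ratio ran from 0.0286 to 0.0714 with single libraries left out. It was 0.0952 without high-fat libraries 1 and 3, which is the smallest p that the remaining libraries allow. With fewer libraries the smallest possible p is larger. The cause of the other changes was not tested. Among the members, the lowest count was that of mmu-miR-15b-3p, with 20 counts in control library 5.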
